A study of Mus musculus with 2 samples.

Results

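GABAergic amacrine cells are inhibitory interneurons of the inner retina. They were chosen by a rule on transcripts: at least 2 UMIs (unique molecular identifiers, counted molecules) of Gad1 and Gad2 summed, at least 1 of the companion genes Slc32a1, Pax6, Tfap2a and Tfap2b, and none of 10 genes of other cells (Slc6a9, Chat, Slc18a3, Onecut1, Lhx1, Trpm1, Rpe65, C1qa, Cldn5 and Dcn). The rule kept 102 of 62485 cells. Of these, 48 of 23200 came from the library labelled sponge and 54 of 39285 from the library labelled GFP. The study made droplet single-cell 3' RNA libraries from the optic cup of Abca4KO mice, a strain without Abca4, the outer segment flippase mutated in Stargardt disease. The design text describes AAV2.8-Sponge.mir181, a vector whose transcript binds miR-181a/b, given under the retina of 1 eye, and AAV2.8-GFP, the control, in the fellow eye. The series sets injection at 2 months of age and collection 4 months later, while the labels give both samples an age of 4 months. Both groups share the Abca4 knockout, and the sources used here do not give the number of mice. The comparison addresses what inhibition of these microRNAs does to the cells of this retina. Each group is 1 library, so no test was possible. The intervals below are 95% intervals that cover counting error only, and cells are not replicates.

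Amacrine cells make synapses onto bipolar cell terminals, ganglion cells and each other. The GABAergic kinds make GABA with the enzymes Gad1 (GAD67) and Gad2 (GAD65) and load it into vesicles with Slc32a1 (VGAT). Pax6, Tfap2a and Tfap2b are transcription factors of the amacrine lineage. The class holds many kinds that differ in their neuropeptides, and most reach widely across the retina, while glycinergic amacrine cells mostly have narrow fields. The miR-181 family is expressed in the inner retina, and its reported targets include regulators of mitochondrial biogenesis and turnover.

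The sponge is aimed at the mature microRNAs below, printed because their seed (bases 2 to 8, in capitals) sets which transcripts they can pair with. The sequences are from RefSeq (GRCm38.p6). The genes of miR-181a-5p lie at chr1:137966468-137966490 and chr2:38852741-38852763, and those of miR-181b-5p at chr1:137966650-137966673 and chr2:38853845-38853868, all on the plus strand.
mmu-miR-181a-5p: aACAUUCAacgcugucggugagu
mmu-miR-181b-5p: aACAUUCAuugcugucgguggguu
Both carry the seed ACAUUCA, which pairs with TGAATGT in a transcript. Such matches in annotated 3' UTRs of reported targets are shown with 8 bases on each side and the match in capitals. They are from GENCODE M21 transcripts (GRCm38) and belong to Gria2, an AMPA receptor subunit (chr3:80688564-80688586, minus strand), Atg5, an autophagy gene (chr10:44364197-44364219, plus strand), and Xiap, an inhibitor of caspases (chrX:42105012-42105034, plus strand).
Gria2 site: catgggaaTGAATGTcagtgtga
Atg5 site: gtccacatTGAATGTcaacccat
Xiap site: gctctaatTGAATGTgtgatggg

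The libraries held 132067896 UMIs over 23267 barcodes (sponge) and 123040365 UMIs over 39461 barcodes (GFP). Kept cells had a median of 2980.5 UMIs with 8.87% mitochondrial in the library labelled sponge, and 2415 UMIs with 11.2% in the library labelled GFP. The GABAergic amacrine cells differed more in depth. They had a median of 5497 UMIs (981 to 16940) and 5.85% mitochondrial UMIs in the library labelled sponge, and 2833.5 UMIs (1194 to 8001) and 9.57% in the library labelled GFP. Their summed totals were 289430 and 172662 UMIs. The eGFP sequence had 5483 UMIs in the other kept cells labelled sponge and 12 in those labelled GFP, so it does not bear out the vector labels. The sources used here do not say whether the sponge vector also carries eGFP. Each library is thus called by its label, and every direction below rests on that. Among the GABAergic amacrine cells eGFP had 1 UMI in those labelled sponge and 0 in those labelled GFP. Abca4 had 5 and 13 UMIs in them, which does not check the genotype, since reads near the 3' end can lie outside a deletion. The libraries shared 290 barcode sequences, and 1 member of each library had a barcode that was also kept in the other.

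Gad1 led the rule in both libraries. Gad1 (chromosome 2, 70553072 to 70602014) had 134 UMIs in the cells labelled sponge (463 CPM, a gene's UMIs scaled to a common total over the same cells; 388 to 548) and 90 UMIs in those labelled GFP (521 CPM, 419 to 641). Gad2 (chromosome 2, 22622205 to 22693874) had 62 UMIs (214 CPM, 164 to 275) and 46 UMIs (266 CPM, 195 to 355). Both genes were seen together in 26 cells labelled sponge and 24 labelled GFP, Gad1 without Gad2 in 19 and 21, and Gad2 without Gad1 in 3 and 9. The summed Gad count was low, with a median of 3 UMIs and a highest value of 18 in the cells labelled sponge, and a median of 2 and a highest value of 6 in those labelled GFP.

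Among the companion genes, Pax6 was the one seen most often. It was detected in 72.9% of cells labelled sponge and 63.0% of those labelled GFP, and Tfap2b in 52.1% and 53.7%. The level of Tfap2b was 373 and 376 CPM. Tfap2a was found in 16 of 48 and 7 of 54 cells and Slc32a1 in 27.1% and 25.9%. Cells with a single companion numbered 22 labelled sponge and 32 labelled GFP, and all 4 companions were present in 4 and 1. These values chose the cells and are given as a description.

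Most candidate cells were lost to the excluded genes. Of 334 cells labelled sponge and 476 labelled GFP that passed on Gad, 237 and 316 had a companion gene, and 48 and 54 of those had no excluded gene. Trpm1, a channel of ON bipolar cells and melanocytes, was present in 156 and 212 of the cells that passed on Gad and a companion. Rpe65 was present in 50 and 85, Slc6a9 in 47 and 32, and Dcn in 47 and 56. Cells with any Trpm1 had a median of 11733 and 5671 UMIs, so the rule kept shallower cells than it removed. With Trpm1 left out of the excluded genes, a choice made after seeing the data, the rule kept 102 and 156 cells.

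The cells nearest the threshold differed in how much neuronal RNA they held. The share of UMIs in 48 adhesion and wiring genes, long neuronal genes such as Nrxn3 and Lsamp that the rule did not use, served as the gauge. In cells with 3 or more Gad UMIs, 28 labelled sponge and 14 labelled GFP, its median was 4.91% and 3.15%. In cells with exactly 2, 20 and 40 of them, it was 3.41% and 2.56%. Just outside, 149 and 247 cells with 1 Gad UMI and otherwise the same profile stood at 0.989% and 1.41%. All other kept cells had medians of 0.797% and 1.41%.

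Some of the cells held little neuronal RNA. Under 1% of UMIs fell in the adhesion and wiring genes in 8 cells labelled sponge and 5 labelled GFP, and 7 and 5 of these had exactly 2 Gad UMIs. Their median depth was 1412.5 and 2173 UMIs, against 5905.5 and 2850 UMIs in the other 40 and 49. At least 1% was also reached by 76.9% and 87.0% of the cells chosen on Trpm1, an ON bipolar gene, and by 41.1% and 62.1% of other kept cells, so this share marks neuronal RNA and does not check the amacrine label. A single cell labelled sponge, with 16940 UMIs in all, held 457 UMIs of 7 contractile genes of smooth muscle (Acta2, Tagln, Myl9, Myh11, Tpm2, Des and Cnn1), and 1 cell labelled GFP held 22. Results are given below with and without such cells where it matters, and those subsets were set after seeing the data.

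**Figure D1:**
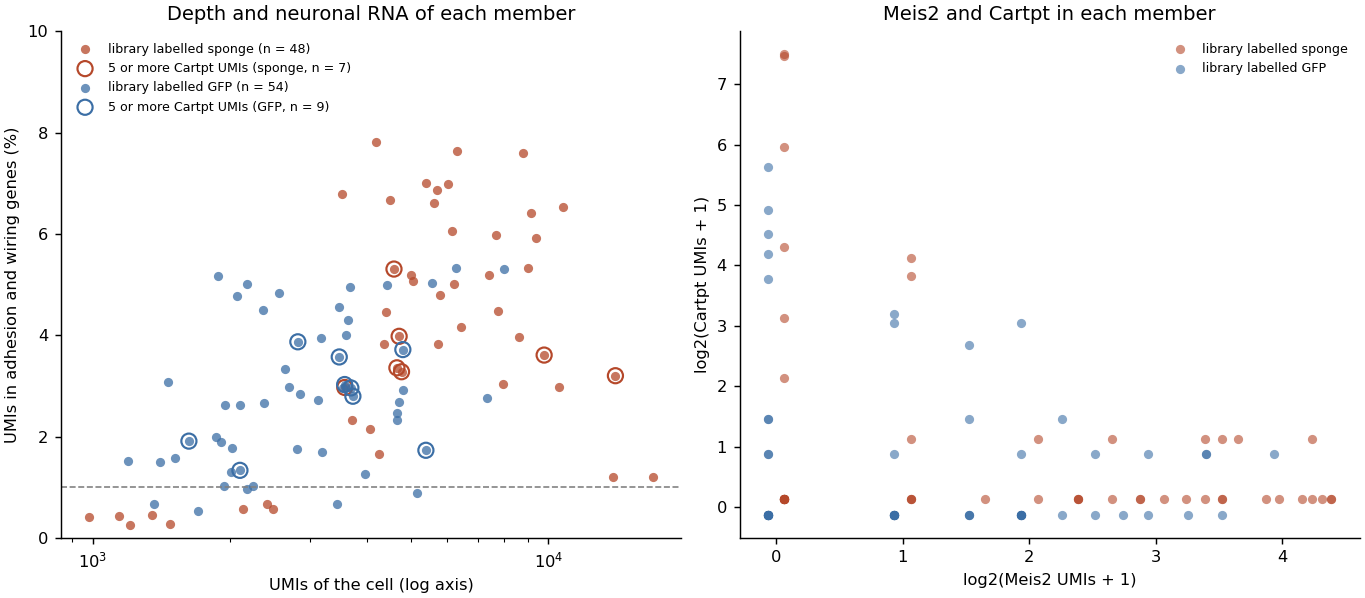
Each point is 1 GABAergic amacrine cell. The left panel gives its UMIs on a log axis against the percent of UMIs in adhesion and wiring genes, with rings around cells with 5 or more Cartpt UMIs and a dashed line at 1%, and 8 cells labelled sponge and 5 labelled GFP lie under that line. The right panel gives Meis2 against Cartpt as log2(UMIs + 1), with the libraries offset by a small step so that points do not hide each other, and of the cells with 5 or more Cartpt UMIs 0 labelled sponge and 2 labelled GFP have 2 or more Meis2 UMIs.

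Transcripts of rods and Müller glia were present in the cells of both libraries, at higher levels in those labelled GFP. Rod genes made up 7418 CPM in the cells labelled sponge and 11091 CPM in those labelled GFP, near the 6931 and 10981 CPM of cells chosen on Trpm1. Müller glia genes stood at 3656 and 5467 CPM. They made up at least 1% of UMIs in 3 cells labelled sponge and 5 labelled GFP. Of these, 0 and 1 had under 1% of UMIs in adhesion and wiring genes. Of the lists for other cells, fibroblast genes were at 38.0 and 11.6 CPM, microglia and macrophage genes at 104 and 185 CPM, and retinal ganglion cell genes at 214 and 156 CPM. The rod share differs between the libraries in the direction of the mitochondrial share, and its part in the differences below was not tested.

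A set of other genes was picked for a high ratio to the other kept cells in both libraries, so their height in both is no finding. None of those named next were used by the rule. The comparison is a description, since the cells were chosen on their transcripts. Kcnip1, an auxiliary subunit of A-type potassium channels, stood at 943 CPM in the cells labelled sponge and 515 CPM in those labelled GFP, against 15.6 and 26.6 CPM in the other kept cells. Ralyl, an RNA-binding protein gene, was the most abundant of the set at 2629 and 2815 CPM, against 139.6 and 183 CPM. Fgf14, which binds sodium channels, had 1658 and 1054 CPM, and Lingo2 had 1772 and 1425 CPM.

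The remaining genes of that set were lower in level. Alk, a receptor tyrosine kinase, had 456 and 266 CPM, Caln1 321 and 162 CPM, and Cacna1e, a subunit of R-type calcium channels, 76.0 and 92.7 CPM. Htr2c, a serotonin receptor, had 79.5 and 69.5 CPM and was seen in 9 and 5 cells. The set also held the unnamed transcripts Gm47027, 1700024B18Rik and A230006K03Rik. The 12 genes of the set were picked for their ratio to other kept cells. All were at least 18.2 times that level in the library labelled sponge and 14.1 times in the library labelled GFP.

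Cells chosen on Trpm1, which the rule for ON bipolar cells took with a companion gene such as Grm6, Otx2 or Isl1, served as a class that should lack amacrine genes. There were 3019 labelled sponge and 5520 labelled GFP, with median depths of 6124 and 2994 UMIs. Melanocyte genes, which Trpm1 cells of the uvea express, made up 10586 and 7172 CPM in them, so this class was mixed and is called Trpm1-positive here. Kcnip1 was found in 2.05% of Trpm1-positive cells labelled sponge and 4.51% of those labelled GFP, against 36 of 48 and 24 of 54 of the GABAergic amacrine cells. Ralyl was less particular, with 42.6% and 33.9% of Trpm1-positive cells against 72.9% and 70.4%. Both genes were picked above for their ratio to other kept cells, which include the Trpm1-positive cells, so these contrasts are a description. For Syt1 and Snap25, which serve vesicle release in all neurons, detection ran from 87.8% to 97.9% over both classes and libraries.

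**Figure D2:**
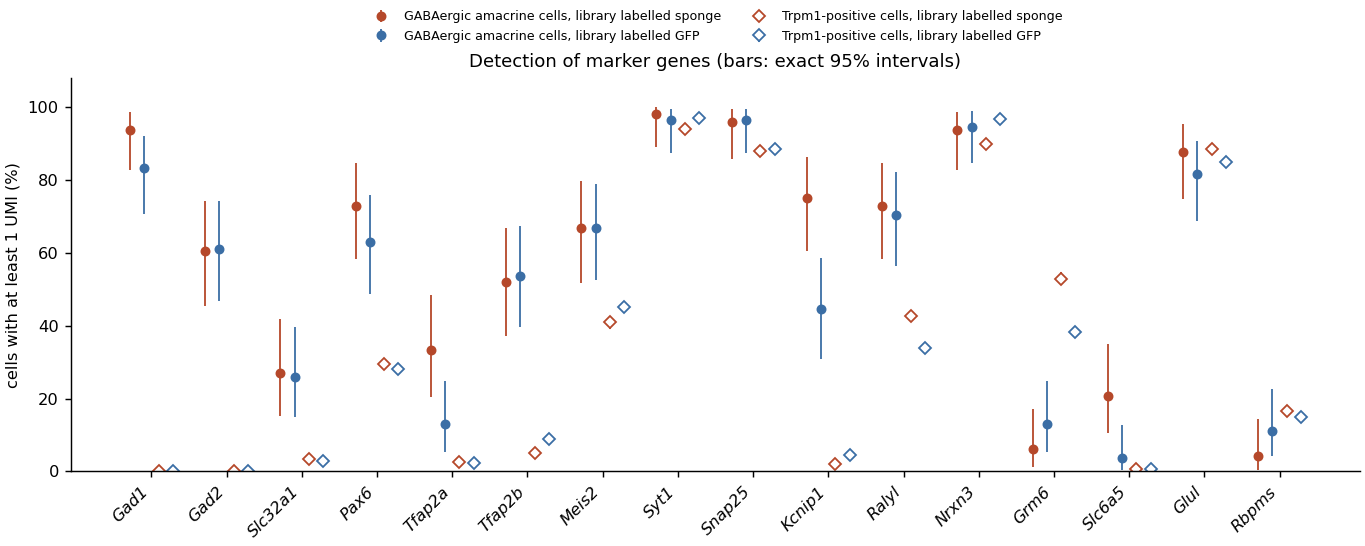
Percent of cells with at least 1 UMI of each gene, in GABAergic amacrine cells (filled circles) and Trpm1-positive cells (open diamonds) of the libraries labelled sponge (red) and GFP (blue), with exact 95% intervals. Gad1 and Gad2 are at 0 in Trpm1-positive cells by their rule. Kcnip1, picked for its ratio to other kept cells, stands apart between the classes, and Glul, a gene of Müller glia, is close between them.

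Against cells chosen on Slc6a9, the glycine transporter of glycinergic amacrine cells, Cartpt and Ptprm led. The rule for these cells gave only 30 labelled sponge and 16 labelled GFP, and 9 of 30 and 2 of 16 had under 1% of UMIs in adhesion and wiring genes. Krt15, a keratin of surface epithelium, stood at 5502 and 262 CPM in them, and Cldn4 and Epcam, also epithelial, were among the genes highest in them, so this class was mixed too. The neuropeptide gene Cartpt stood at 1527 and 1100.4 CPM in GABAergic amacrine cells, against 50.5 and 16.4 CPM in the Slc6a9 cells. Ptprm, a receptor phosphatase, stood at 553 and 405 CPM, against 10.8 and 0 CPM. Kcnd2, Nav3, Tafa2, Ralyl and Kcnip1 were also among the 8 genes highest in GABAergic amacrine cells. Slc6a5, the second glycine transporter and not an excluded gene, was seen in 20.8% of GABAergic amacrine cells labelled sponge and 3.70% of those labelled GFP, with 13 and 2 UMIs. The Slc6a9 cells had it in 23.3% and 12.5%. Its level was 44.9 and 11.6 CPM in GABAergic amacrine cells, against 32.5 and 49.1 CPM in the Slc6a9 cells, so those labelled sponge were not lower in this glycinergic marker.

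A distinct set of cells carried nearly all Cartpt, which encodes the CART peptide. A single Cartpt UMI was no mark, since 15.2% and 19.6% of Trpm1-positive cells had at least 1. Cells with 5 or more Cartpt UMIs, a threshold set after seeing the values, numbered 7 labelled sponge and 9 labelled GFP. They held 432 of 442 and 173 of 190 Cartpt UMIs, and the highest cell had 164 and 53. In mouse retina CART is best known from direction-selective ganglion cells. A set of 6 ganglion cell genes (Rbpms, Slc17a6, Nefl, Pou4f1, Pou4f2 and Pou4f3) had 5 and 5 UMIs in these cells, or 108.5 and 160.5 CPM, against 131 and 91.9 CPM in the rest. Of these genes, Slc17a6 and the Pou4f genes had 0 UMIs in the Cartpt-rich cells of both libraries. In the rest Slc17a6 had 1 and 1 UMIs, and the Pou4f genes together had 0 and 4. These values do not separate the Cartpt-rich cells from the rest. Their median depth was 4701 and 3569 UMIs, against 5702 and 2692 UMIs in the rest.

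The genes named for the Cartpt-rich cells were picked for a high ratio in both libraries, so their presence in both is no finding. Tfap2b, a companion gene of the rule, was detected in 7 of 7 and 9 of 9, against 18 of 41 and 20 of 45 of the rest, and stood at 1280.5 and 931 CPM against 201 and 254 CPM. Pax6, also a companion gene, was detected in 3 of 7 and 6 of 9, against 32 of 41 and 28 of 45, and a cell without it could enter only through another companion gene. Apart from Cartpt, the 10 genes with the highest ratio to the rest in the library where it was smaller included Sv2c, Kit, Tshz1, Kcnd2, C1ql1, Alk, Chrm3, Grm5 and Marcks. Sv2c, a synaptic vesicle protein, stood at 846 CPM in Cartpt-rich cells labelled sponge against 45.2 CPM in the rest, and at 353 against 14.1 CPM in those labelled GFP. Kit, a receptor tyrosine kinase, stood at 608 against 32.9 CPM (sponge), and at 481 against 0 CPM (GFP), with 0 UMIs in the 45 other cells labelled GFP.

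Receptors and their partners were part of the set. Grm5, a metabotropic glutamate receptor, stood at 2214 against 201 CPM in the library labelled sponge and 1059 against 205 CPM in the library labelled GFP. C1ql1, a secreted protein that binds synaptic receptors, stood at 1367 against 74.0 CPM and 578 against 84.8 CPM. Chrm3, a muscarinic acetylcholine receptor, stood at 2604.5 against 403 CPM and 1637 against 289.8 CPM. With 7 and 9 cells in the set, these are sums over few cells, and all 7 cells labelled sponge and 8 or 9 of those labelled GFP had C1ql1, Chrm3 and Grm5.

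A second set was marked by Meis2, a homeobox gene of many GABAergic amacrine cells. At least 2 Meis2 UMIs were present in 26 cells labelled sponge (54.2%, 39.2 to 68.6) and 25 labelled GFP (46.3%, 32.6 to 60.4), against 24.8% and 19.9% of Trpm1-positive cells. With every cell thinned to 1000 UMIs, at least 2 Meis2 UMIs were left in 31.9% and 16.7% of GABAergic amacrine cells and 3.54% and 3.51% of Trpm1-positive cells. At least 1 Meis2 UMI was left in 51.1% and 53.7%, and in 13.3% and 19.1%. Cartpt-rich cells lay mostly outside this set, with 0 of 26 and 2 of 25. In the Cartpt-rich cells Meis2 stood at 43.4 and 225 CPM, against 1039.6 and 926 CPM in the rest.

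The cells of the Meis2 set were deeper, with a median of 6174 UMIs against 4379.5 UMIs in the rest (sponge) and 3461 against 2372 UMIs (GFP). Their median share of adhesion and wiring UMIs was 5.62% against 3.09%, and 3.95% against 1.78%, and the part of depth and neuronal RNA in what follows was not tested. The genes were again picked for a high ratio in both libraries. After Meis2, the 10 genes with the highest ratio to the rest included Klhl1, Sdk1, Cntnap5a, March3, Plcxd3, Rbfox1, Stxbp6, Ptprk and Lhfp. Sdk1, an adhesion protein that helps sort synapses into layers, stood at 930.3 CPM against 37.5 CPM in the rest in the library labelled sponge, and at 560.4 against 25.04 CPM in the library labelled GFP. Rbfox1, a neuronal splicing factor, stood at 2030.2 against 262 CPM and at 1347 against 125 CPM. Klhl1 had 63 and 12 UMIs in the set and 0 in the rest of either library. The set held 63.1% of the UMIs of all GABAergic amacrine cells labelled sponge and 53.7% of those labelled GFP.

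**Figure D3:**
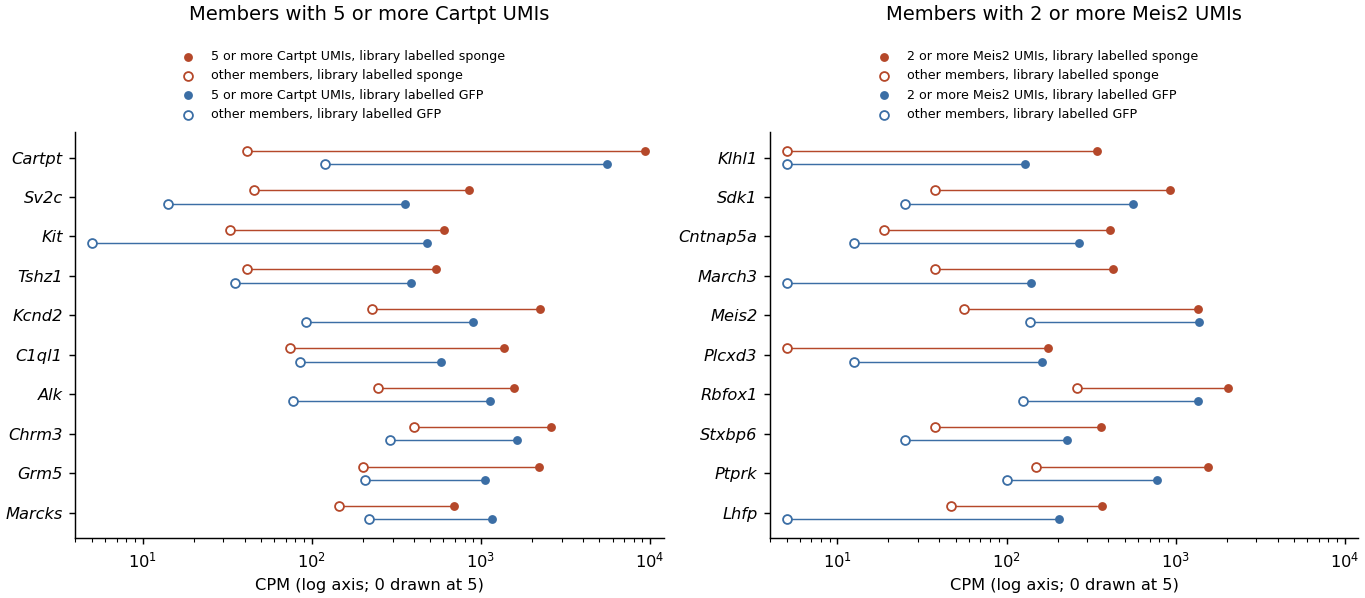
CPM on a log axis of 10 genes with high ratios in cells with 5 or more Cartpt UMIs (left) and in cells with 2 or more Meis2 UMIs (right), in filled circles, joined to the CPM of the remaining GABAergic amacrine cells, in open circles. The libraries labelled sponge (red) and GFP (blue) are drawn as separate lines with 0 placed at 5 CPM, each set is higher in every gene shown, and Cartpt in Cartpt-rich cells stands at 9376 and 5552 CPM.

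Markers of other known kinds were seen in few cells at this depth. The neuropeptide gene Vip reached 2 UMIs in 1 cell labelled sponge and 2 labelled GFP, Tac1 in 1 and 1, Penk in 1 and 0, and Cck in 0 and 1. Th, which marks dopaminergic amacrine cells, reached 2 UMIs in 1 and 0, and Nos1 in 0 and 1. Npy, Crh, Gal, Pnoc, Nppb and Gbx2 had 0 UMIs in the 48 and 54 cells, which allows a share of cells with a UMI of up to 6.25% and 5.56%. Of the genes of starburst amacrine cells, the rule excluded Chat and Slc18a3. Chat was present in 3 and 1 and Slc18a3 in 0 and 2 of the cells that passed on Gad and a companion. Starburst cells with neither gene detected could remain. A list of 8 starburst genes stood at 639 and 614 CPM in GABAergic amacrine cells. It stood at 578 and 575 CPM in other kept cells and 1068 and 847 CPM in Trpm1-positive cells.

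Maf, a transcription factor, reached 2 UMIs in 16.7% of cells labelled sponge (8 cells, 7.48 to 30.2) and 5.56% of those labelled GFP (3 cells, 1.16 to 15.4). The intervals overlap. In Trpm1-positive cells these shares were 4.24% and 1.83%. After thinning to 1000 UMIs at least 1 Maf UMI was left in 14.9% and 9.26% of GABAergic amacrine cells.

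As a share of kept cells, GABAergic amacrine cells stood at 0.207% (0.153 to 0.274) in the library labelled sponge and 0.137% (0.103 to 0.179) in the library labelled GFP. The log2 ratio of the shares was 0.59 with an interval from -0.00 to 1.18. With all cells thinned to 1000 UMIs before the rule, 12 of 21980 and 15 of 38404 cells passed, shares of 0.0546% and 0.0391%, with a log2 ratio of 0.48 (-0.74 to 1.68). The ratio moved with the Gad threshold. With at least 3 Gad UMIs, 28 and 14 cells passed and it was 1.76 (0.79 to 2.799), and with Trpm1 allowed it was 0.15 (-0.23 to 0.52). A rule on detected transcripts takes deeper cells more readily, and the cells labelled sponge were deeper, so a difference in cell number cannot be told apart from one in depth.

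Levels were then compared between the libraries within the GABAergic amacrine cells. The log2 ratio is that of CPM in the cells labelled sponge over those labelled GFP, with 0.5 added to each count. A gene was measured with at least 20 UMIs over both libraries, which 4575 genes reached. Of these, 276 (6.03%) were at least 2-fold higher and 287 (6.27%) at least 2-fold lower in the cells labelled sponge, with a median log2 ratio of 0.02. The interval of a typical gene reached 1.01 to either side, so a 2-fold difference was about the counting error of a typical gene. Ranks follow whichever end of a gene's interval lies closer to 0, over 1876 genes that met the minimum levels. A gene summed over so few cells can rest on 1 of them, so the number of cells and the value without the top cell of each library are given.

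The long noncoding RNA Mir670hg (chromosome 2, 94160636 to 94264918) was among the highest, also without its top cells. It had 96 UMIs in 18 cells labelled sponge (332 CPM, 269 to 405) and 4 UMIs in 3 cells labelled GFP (23.2 CPM, 6.31 to 59.3). The log2 ratio was 3.68 (2.44 to 5.74), and 3.67 without the top cells, of which the one labelled sponge held 43 UMIs. In all other kept cells it stood at 31.3 and 32.2 CPM. With Trpm1 allowed, when the rule kept 102 and 156 cells in all, the ratio was 1.54. Chka, which phosphorylates choline for membrane lipids, had 121 UMIs in 26 cells and 7 UMIs in 6 cells, with a log2 ratio of 3.27. A single cell labelled sponge held 68 of them, and without the top cells the ratio was 2.54. Müller glia genes made up 2.43% of that cell's UMIs, against a median of 0.159% in the cells labelled sponge. In other kept cells Chka stood at 105 and 102 CPM, and with Trpm1 allowed the ratio was 0.90.

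The class I MHC heavy chains H2-K1 and H2-D1, which show peptides to T cells, were higher in the cells labelled sponge. H2-K1 had 52 UMIs in 13 cells labelled sponge and 3 UMIs in 3 cells labelled GFP, a log2 ratio of 3.16 (1.74 to 5.69) that was 2.29 without the top cells. H2-D1 had 79 UMIs in 25 cells and 9 UMIs in 8 cells, a log2 ratio of 2.32 (1.39 to 3.57) that was 1.498 without them. A single cell labelled sponge held 32 of the 52 H2-K1 UMIs, and 44 of the 79 H2-D1 UMIs were in 1 cell. The same genes were higher across the other kept cells of the library labelled sponge, with log2 ratios of 1.42 and 1.54. Whether these UMIs came from the amacrine cells or from other cells' RNA was not tested.

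March3, a ubiquitin ligase gene, had 82 UMIs in 19 cells labelled sponge and 13 UMIs in 7 cells labelled GFP, a log2 ratio of 1.87 (1.94 without the top cells, 0.85 with Trpm1 allowed), and 78 and 13 of these UMIs lay in the Meis2 set. Gpr22, an orphan receptor, had 62 UMIs in 12 cells and 7 UMIs in 5 cells, a log2 ratio of 2.31 that was 1.52 without the top cells. It lay mostly in Cartpt-rich cells, with 55 of 62 and 4 of 7 UMIs, and among cells of the Meis2 set its ratio was -0.62. Zfp804a had 121 and 21 UMIs, of which 67 were in 1 cell labelled sponge, and its ratio was 1.75, or 0.98 without the top cells and 0.71 with Trpm1 allowed.

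The other genes ranked highest, Acta2, Myl9, Tagln, Myh11 and Tpm2, are contractile genes of smooth muscle and rested on the cell named above. Acta2 had 143 UMIs in the cells labelled sponge, 136 of them in 1 cell, and 7 UMIs in those labelled GFP. Without the top cells Acta2 stood at a log2 ratio of 1.58, Tagln, Myl9 and Myh11 had under 5 UMIs in all, and Tpm2 turned to a log2 ratio of -1.23.

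The lowest rank was held by Lcn2 (chromosome 2, 32384633 to 32388252), which encodes lipocalin, secreted in acute-phase responses. It had 0 UMIs in the cells labelled sponge and 95 UMIs in 12 cells labelled GFP (550 CPM), with 75 of them in 1 cell. Against a floor of 3 UMIs it was at least 53.1-fold lower in the cells labelled sponge, and with the 20 UMIs left without that cell at least 11.2-fold lower. Other kept cells stood at 31.6 and 442 CPM, a log2 ratio of -3.81. Cngb3, a cone channel subunit, had 11 and 41 UMIs, a log2 ratio of -2.60 that was -0.86 with Trpm1 allowed, and cone genes as a list stood at 249 and 985 CPM. Cp, ceruloplasmin, had 71 and 131 UMIs, a log2 ratio of -1.62 that was -0.35 with Trpm1 allowed.

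Small ribosomal and mitochondrial transcripts filled most of the remaining lowest ranks. Rpl38 stood at 155 CPM in the cells labelled sponge and 568 CPM in those labelled GFP (log2 ratio -1.86), Rpl39 at 149 and 515 CPM, Rpl41 at 179.7 and 585 CPM, Rps21 at 207 and 660.2 CPM, and Rps28 at 107 and 382 CPM. The mitochondrial gene mt-Nd4l stood at 235 and 1025 CPM (-2.12), mt-Nd6 at 96.7 and 342 CPM, and Atp5l, a subunit of ATP synthase, at 100.2 and 342 CPM (-1.76). The other kept cells leaned the same way. Rpl38 stood at -1.003 in them and -1.13 in Trpm1-positive cells, Rpl39 at -0.96 and -1.19, Rps21 at -0.93 and -1.06, mt-Nd4l at -1.72 and -1.61, mt-Nd6 at -1.69 and -1.52, and Atp5l at -0.55 and -0.49. The last of the 12, Tmsb4x, which binds actin monomers, had 90 of 191 UMIs in 1 cell labelled GFP, and its ratio of -1.58 was -0.85 without the top cells. Genes of other cells that met the remaining conditions but were scarce in amacrine cells, Gsto1, Ttr, Ptgds, Trf, Dct and Cst3, were all lower, with log2 ratios from -2.19 to -0.48. The lowest, Gsto1, had 30 of 39 UMIs in 1 cell labelled GFP and was -0.35 (-1.70 to 1.10) without the top cells. Ttr, a marker of pigment epithelium, had 228 and 509.7 CPM.

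**Figure D4:**
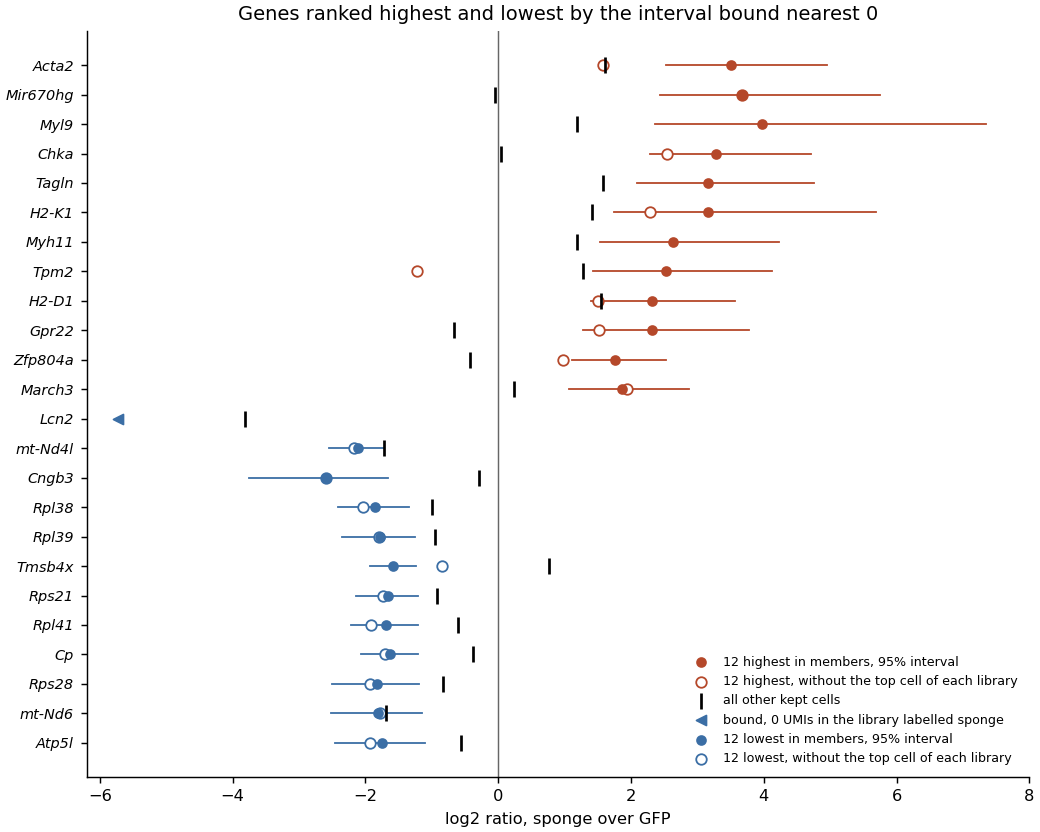
Log2 ratio, sponge over GFP, of the 12 genes ranked highest (red) and the 12 ranked lowest (blue) in GABAergic amacrine cells, with 95% counting intervals. Open circles leave out the cell with the most UMIs of the gene in each library and are missing where under 5 UMIs remain or hidden where equal, black bars give all other kept cells, and the Lcn2 arrow is a bound. Mir670hg stays at 3.67 without its top cells while Tpm2 moves to -1.23.

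Of 11 genes for GABA synthesis, packing and uptake, 9 were measured, 3 of which the rule used (Gad1, Gad2 and Slc32a1). They had a median log2 ratio of 0.10, and 0 were past 2-fold in either direction, against 6.03% higher and 6.27% lower over all measured genes. The 3 genes of the rule stood at -0.17, -0.32 and -0.25. Slc6a11, a GABA transporter gene, had 162 and 110.04 CPM (0.54, -0.24 to 1.41). Of 20 GABA receptor genes 10 were measured, with a median of -0.09, 0 past 2-fold higher and 2 lower, against 6.03% and 6.27% over all measured genes. Gabrb1, a beta subunit of the GABA-A receptor and 1 of these 2, had 65.6 and 156 CPM (-1.24, -2.18 to -0.35).

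Glutamate receptor genes, through which bipolar cells drive amacrine cells, were mostly higher in the cells labelled sponge. Of 25 listed, 17 were measured, 15 of them above 0, with a median log2 ratio of 0.55 against 0.02 over all measured genes. Past 2-fold were 1 higher and 1 lower, near the 6.03% and 6.27% over all measured genes. Gria1, an AMPA receptor subunit, had 78 UMIs in 25 cells labelled sponge (269.5 CPM) and 18 UMIs in 13 cells labelled GFP (104 CPM), a log2 ratio of 1.34 (0.62 to 2.20). Gria3 had 612 and 324 CPM (0.91), Grm7 had 2173 and 1239 CPM (0.81), and Grm8 had 1157 and 678 CPM (0.77). Grik1, a kainate receptor subunit of OFF bipolar cells, had 138 and 324 CPM (-1.23), with 40 of 56 UMIs in 1 cell labelled GFP, and was -0.30 without the top cells. The list's median was -0.40 in Trpm1-positive cells, 0.50 in the GABAergic amacrine cells with at least 1% adhesion and wiring UMIs, and 0.30 in the Meis2 set.

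Adhesion and wiring genes, which guide amacrine processes and hold their synapses, showed the same lean. Of 48 listed, 42 were measured, 37 above 0, with a median log2 ratio of 0.53, and 5 were past 2-fold higher and 1 lower, against 6.03% and 6.27% over all measured genes. Cntnap2, a neurexin-related adhesion protein, had 3179 and 1581 CPM (1.01, 0.81 to 1.21), Tenm1 had 939.8 and 359 CPM (1.38), and Lsamp had 4809.5 and 3301 CPM (0.54). Plxna4, Sema3e and Cdh13 were also past 2-fold higher, with 26 of 41 Sema3e and 15 of 26 Cdh13 UMIs in 1 cell labelled sponge. Cntn6 was lower, at 24.2 and 98.5 CPM, and Pcdh15, which photoreceptors also express, had 849.95 and 1448 CPM (-0.77). The median was 0.05 in Trpm1-positive cells. It was 0.30 in the Meis2 set alone, and 0.07 in cells thinned to 1000 UMIs before the rule, of which 12 and 15 remained.

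Sodium, potassium and calcium channel genes had a median of 0.36 over 28 of 37, with 20 above 0. Kcnd2 had 546 and 237 CPM (1.19), most of it in Cartpt-rich cells, and Cacna1b, the N-type calcium channel of terminals, had 155 and 57.9 CPM (1.37). The genes of synaptic release had a median of 0.02 over 32 of 39, from Cplx4 at -1.18 to Rab3c and Sv2c at 1.16. Glycine receptor and scaffold genes had a median of 0.18 over 6 of 10, with Glra2 at 124 and 34.75 CPM (1.74) and Gphn, the gephyrin scaffold, at 1009 and 886 CPM. Chloride transport genes had a median of 0.00 over 9 of 12, with Slc12a5, the exporter KCC2 that keeps GABA inhibitory, at 214 and 237 CPM.

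Transcription factors of amacrine cells had a median of 0.02 over 19 of 37. Past 2-fold were 2 higher and 0 lower, against 6.03% and 6.27% over all measured genes. The 2 were Tfap2a, which the rule used, and Six6. Six6 had 20 UMIs in 13 cells labelled sponge and 2 UMIs in 2 cells labelled GFP (2.29, 0.54 to 5.72). Meis1 (408 and 399.6 CPM) and Nfia (515 and 509.7 CPM) were near even. Calcium binding protein genes had a median of -0.49 over 11 of 19. Neuropeptide and secretory genes had a median of 0.26 over 8 of 30, with Pcsk2, a prohormone convertase, at 273 and 139 CPM (0.95). Modulator receptors had a median of 0.10 over 8 of 39, and Tacr1, the substance P receptor, had 65.6 and 179.5 CPM (-1.44). Genes of dopamine and nitric oxide signalling had a median of 0.04 over 6 of 12, and none of 7 gap junction genes was measured.

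Genes of energy and protein synthesis leaned the other way. Of 75 nuclear genes of the respiratory chain 70 were measured, 55 below 0, with a median log2 ratio of -0.75, and 1 was past 2-fold higher and 22 lower. Over all measured genes 6.03% were higher and 6.27% lower, which also stands beside the next counts. Cox6c, a subunit of cytochrome oxidase, had 166 and 452 CPM (-1.44), and Uqcrh, of complex III, had 131 and 371 CPM (-1.49). All 13 mitochondrially encoded genes were below 0, with a median of -0.89 and 5 past 2-fold lower, and mt-Co1 had 6527 and 12134 CPM. Of 49 ribosomal protein genes 46 were below 0, with a median of -0.60 and 9 past 2-fold lower. Glycolysis genes were near even, with a median of -0.04 over 16 of 20, and genes of mitochondrial biogenesis and turnover had a median of 0.14 over 12 of 21.

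These lists did not move alike in the rest of the libraries. In Trpm1-positive cells the nuclear respiratory chain median was -0.07, the ribosomal median 0.00 and that of mitochondrially encoded genes -0.50. In all other kept cells they were -0.11, 0.18 and -0.65. Among GABAergic amacrine cells with at least 1% adhesion and wiring UMIs the medians were -0.80, -0.67 and -0.91. The mitochondrial and rod shares were lower and the depth was higher in the GABAergic amacrine cells labelled sponge, and their part in these medians was not tested.

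The lean ran with the length of the genes on the genome. Of 613 measured genes under 10 kb, the median log2 ratio was -0.37, with 17.5% past 2-fold lower and 4.24% higher. Over 2426 genes of 10 to 100 kb it was -0.04. Over 1534 genes above 100 kb it was 0.22, with 2.35% past 2-fold lower and 8.87% higher. The same 3 groups of genes had medians of 0.12, -0.01 and -0.00 in Trpm1-positive cells. Genes above 100 kb held 43.4% of UMIs in the GABAergic amacrine cells labelled sponge and 35.5% in those labelled GFP, against 32.0% and 31.1% in Trpm1-positive cells. Adhesion, channel and glutamate receptor genes are long and ribosomal and respiratory chain genes are short, so within these cells a lean of the lists cannot be told apart from one by length.

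**Figure D5:**
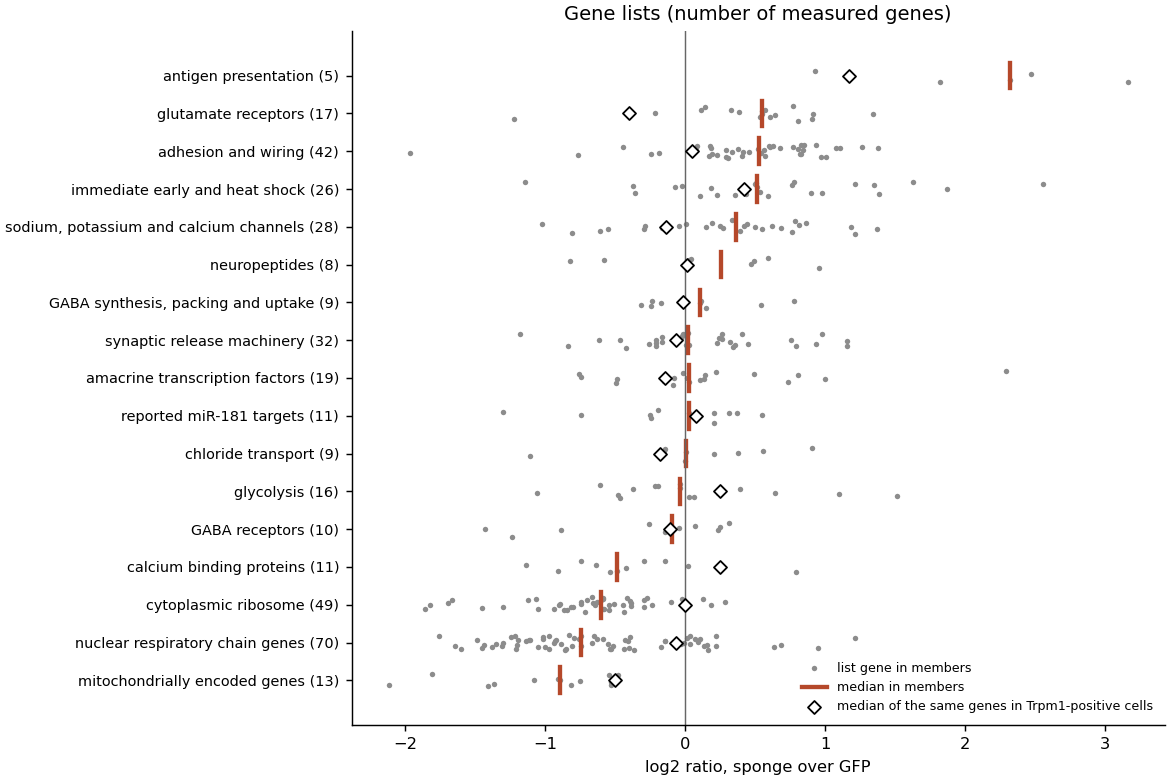
Log2 ratio, sponge over GFP, of each measured gene of 17 lists in GABAergic amacrine cells (grey points), with the list's median in these cells (red line) and in Trpm1-positive cells (diamond). Glutamate receptor and adhesion genes have medians of 0.55 and 0.53 and respiratory chain and ribosomal genes of -0.75 and -0.60 in GABAergic amacrine cells, while the diamonds of the adhesion, respiratory chain and ribosomal lists lie near 0.

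Immediate early and heat shock genes, many of which dissociation induces, had a median of 0.51 over 26 of 31, with 6 past 2-fold higher and 1 lower against 6.03% and 6.27% over all measured genes, and a median of 0.74 in other kept cells. Hspb1, a small heat shock protein, had 34 and 3 UMIs (2.56), with 26 of the 34 in 1 cell. The list's median was -0.41 without the deepest 10% of cells and -0.40 in cells with at least 2 companion genes. Of 19 antigen presentation genes 5 were measured, all above 0, with a median of 2.32, or 1.42 in other kept cells. Across the alternatives this median ran from 0.96 with Trpm1 allowed to 3.06 in the Meis2 set, and it was 1.09 without the deepest 10% of cells. Cd74, the invariant chain of MHC class II, had 32 UMIs in 4 cells labelled sponge, 29 of them in 1, and 3 UMIs in 3 cells labelled GFP. Only 1 of 30 interferon response genes was measured. The unfolded protein, apoptosis and antioxidant lists had medians of -0.28, -0.20 and -0.12 over 11 of 22, 5 of 26 and 13 of 24 genes.

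Genes that miR-181 could pair with stood near the rest. Of 14 reported targets 11 were measured, 6 above 0 and 5 below, with a median log2 ratio of 0.03. Past 2-fold were 0 higher and 1, Atg5, lower, near the 6.03% and 6.27% over all measured genes. Gria2, whose site is printed above, had 194 UMIs (670.3 CPM) and 79 UMIs (457.5 CPM), a ratio of 0.55 (0.17 to 0.95) close to the median of its receptor list. Atg5 had 8 and 12 UMIs (-1.30, -2.83 to 0.08), and Xiap 66 and 45 UMIs (-0.20, -0.76 to 0.39). Nrf1, a regulator of mitochondrial biogenesis, had 14 and 7 UMIs. Across all measured genes, 1235 with TGAATGT in an annotated 3' UTR, searched on the transcript's own strand, had a median of 0.05 and 3145 without it of -0.01. Among 299 genes with 2 or more matches the median was 0.10. The match is in 17.3% of all 21037 genes with an annotated 3' UTR. In other kept cells the medians with and without it were -0.04 and 0.00. With a counting interval of about 1.01 to either side of a typical gene, a small shift of targets was not detectable gene by gene at this depth.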

How the data were processed

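The authors deposited a matrix of whole-number UMI counts per gene and barcode for each library, without normalization. The libraries used the 10x Genomics 3' kit V3.1 after papain dissociation, per the labels' protocols, and Cell Ranger 7.0.0 on mm10, per the submitters' processing notes. How barcodes were called and whether intronic reads were counted was not stated in the sources used here. Barcodes with at least 500 UMIs, at least 300 genes and at most 25% mitochondrial UMIs were kept (23200 labelled sponge, 39285 labelled GFP). No doublet caller was run and no doublets were removed, and leaving out the deepest 10% of cells was an alternative. Counts of the chosen cells were summed per library as CPM. Ratios add 0.5 to each count. Intervals are exact Poisson for CPM, exact binomial for ratios and Clopper-Pearson for shares, at 95%. A count of 0 was bounded with 3 counts. No test was run, as each group is 1 library.

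Named genes are the 12 highest and 12 lowest, ranked on the end of the interval closer to 0, of those with at least 50 UMIs, 20 CPM in a library, and 0.25 of the level of other kept cells. The 6 genes failing only that last condition, the 12 highest over other kept cells, the 8 each way against Slc6a9 cells, and list members were also named, and some of these genes are not reported here. The cells, lists and genes were chosen with earlier results of these data known. Coordinates and 3' UTRs are from GENCODE M21, of the same build as mm10. The calculation of the ratios was run on simulated Poisson counts with set fold changes. Those counts had no spread between cells, so the run checks the calculation only and not how well the intervals cover these data. Python 3.11.15, numpy 2.4.6, scipy 1.17.1 and pandas 2.3.3 were used.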

Additional observations from a re-analysis of the deposited data

How the results depend on the processing

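Over 17 alternatives, 602 single-gene, list and marker values moved by less than their counting interval, 52 moved by more and 12 reversed. Of the counts, shares and leading list medians 111 kept within those limits, or within 1.5 times, and 12 moved. With at least 50 UMIs per gene, 100 of 1882 genes were at least 2-fold higher and 86 lower. With at least 5 UMIs the counts were 1242 and 1272, over a larger number of genes. In thinned cells, of which 12 and 15 remained, the counts were 5 and 16 of 128 measured genes (3.91% and 12.5%). With at least 3 Gad UMIs 268 of 2413 measured genes were higher (11.1%) and 191 lower (7.92%), against 6.03% and 6.27% under the main rule. Without the deepest 10% of cells 9.04% of 3916 measured genes were higher and 9.60% lower. The numbers of genes past 2-fold were compared as counts, so some that kept within those limits changed as shares of the measured genes. With Trpm1 allowed 426 of 9385 were higher (4.54%), against 6.03%. The log2 ratio of the share was 1.76 with at least 3 Gad UMIs. The adhesion and wiring median was 0.070 in thinned cells, and the immediate early and heat shock median was -0.40 with at least 2 companion genes and -0.41 without the deepest 10% of cells. Without the deepest cells Acta2 turned to -0.75, Myh11 to -2.86, Tagln to -2.13 and Tpm2 to -2.62, since the cell that held them was left out. Tpm2 was -1.18 without cells rich in contractile genes and -1.23 without the top cells. Dct was 0.52 with at least 3 Gad UMIs, and Gpr22 was -0.62 in the Meis2 set. In thinned cells Gpr22 was -0.82, Rps28 0.32, Trf 0.81 and Ttr 0.12, and the cause was not tested. The subsets by adhesion share, contractile genes, Meis2, Trpm1 and top cells were chosen after seeing the data. No paired analysis was possible because each group has a single library and cells carry no mouse of origin. Depth is a limit, since 48 and 54 cells with 289430 and 172662 UMIs leave few genes with a narrow interval. So is the single library of each group, and no interval covers differences between mice, eyes or dissociations.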
